A study of Mus musculus with 8 samples.

Results

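The genes described here are the complement proteases C1ra, C1rb and C1s1, their inhibitor Serping1, the components C3, C4b and Cfb, and the membrane regulators Cd55 and Cd59a. They were chosen by symbol in the array's annotation, in view of the difference between G9a cKO and G9a WT arrays, so their own values for that contrast are a description. Where the text says that one of them is among the called genes, that too only describes the choice and is no test of it. Of the 9 genes, 8 had at least 1 probe set with that single symbol, 11 probe sets in all, among 17097 genes measured. C3 had none under its symbol, so its expression was not analysed here.

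Expression was measured on Affymetrix mouse arrays in epidermal bulge cells, the stem cell compartment of the hair follicle. Both groups were mice aged 15 weeks whose shaved backs had received the mutagen DMBA together with the tumour promoter TPA once a week for 6 weeks from the age of 8 weeks. 4 arrays were labelled G9a cKO (conditional knockout) and 4 were labelled G9a WT, where G9a, the product of Ehmt2, is a methyltransferase of lysine on histone H3. The design asks how loss of G9a relates to expression in bulge cells of carcinogen-treated skin. The sources used here do not give the Cre driver, the deleted part of the gene, how the cells were isolated or the sex of the mice. Every title refers to an animal and adds a replicate number.

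Complement is a cascade of plasma and tissue proteins that tags and lyses targets. In its classical pathway the recognition molecule C1q carries the proteases C1r and C1s. C1r activates C1s, C1s cleaves C4 and C2, and the inhibitor encoded by Serping1 removes both proteases. The convertases formed from these fragments, or from C3 and factor B in the alternative pathway, cleave C3. Cd55 speeds the decay of the convertases on a cell's own surface and Cd59a blocks the membrane attack complex. Most of these proteins are made in the liver, and epithelial cells, fibroblasts and macrophages make some of them locally.

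Values are log2 RMA expression per probe set, on a scale that ran from 3.09 to 13.1 with array medians of 5.87 to 5.95. Markers of the labelled cells were bright: the WT means of 10 bulge genes, among them Krt15, Cd34, Lhx2 and Lgr5, lay between 8.62 and 12.3, and those of 6 keratinocyte genes between 9.27 and 12.7. No array of another cell type was there to compare. On the first principal component, with 37.3% of the variance, WT replicate 4 stood at 2.92, between -12.2 to -5.95 for cKO and 10.6 to 12.7 for the other WT arrays. An Ehmt2 probe set (1460692) read 5.54 to 6.44 in cKO and 8.89 to 9.29 in WT, a log2 difference of -3.21 (SE 0.18). A second one (1426888) read 8.41 in both groups, and where either lies relative to the deletion is not known here.

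In the cKO arrays C1s1, Serping1 and C1rb read higher than in every WT array. C1s1 was 2.24-fold, Serping1 2.15-fold and C1rb 1.57-fold higher, while C4b read 1.13-fold lower and C1ra, Cfb, Cd55 and Cd59a had overlapping groups. Among the genes called by limma (adjusted p under 0.05), 3 of the 8 stood as higher (37.5%) and 0 as lower, where 1.92% of all genes were called higher, 0.836% lower and 2.76% in either direction. The groups did not overlap in 4 of the 8, against 8.24% of all genes. As the genes were chosen on this contrast, nothing is read from these shares. Among the 329 genes called higher, ordered by the size of their difference, C1s1 was number 23, Serping1 number 24 and C1rb number 88, and the median of the 329 was 1.39-fold.

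**Figure D1:**
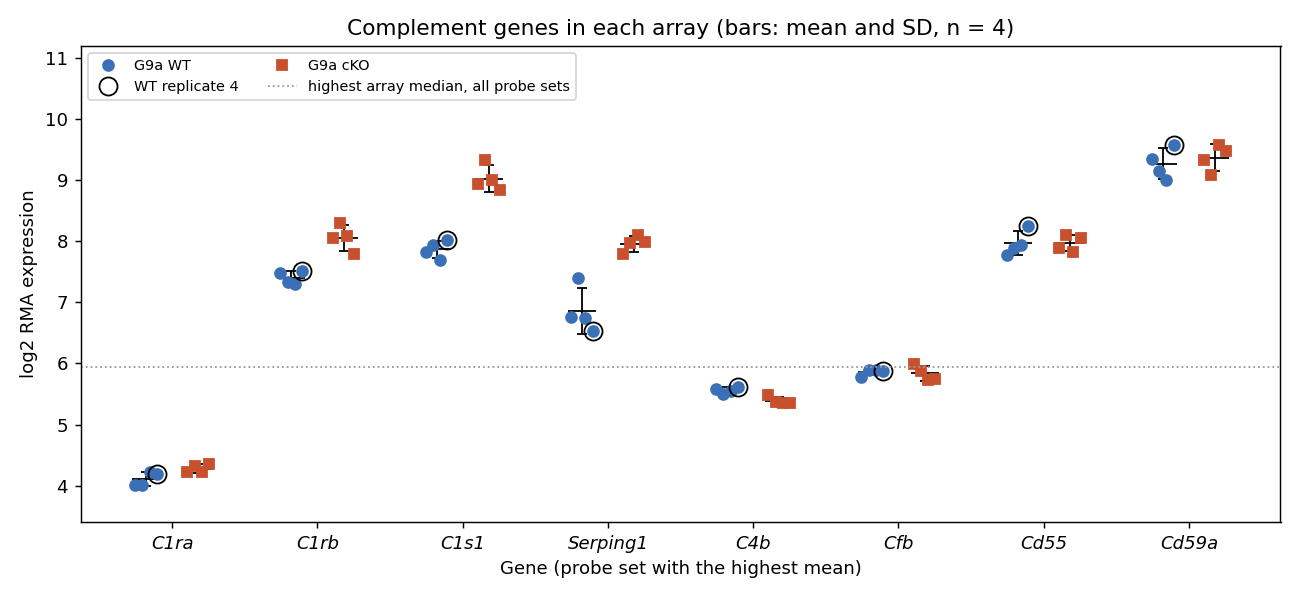
Log2 RMA expression (vertical axis) of 8 complement genes (horizontal axis) in each array, blue circles for 4 G9a WT and orange squares for 4 G9a cKO arrays, with bars for the mean and SD and a ring around WT replicate 4. All cKO squares of C1s1, C1rb and Serping1 lie above all WT circles, while those of Cd55 and Cd59a overlap; the dotted line marks the highest array median, 5.95.

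The C1r and C1s genes lie next to each other on mouse chromosome 6, in the order C1rl, C1ra, C1s1, C1rb, C1s2 in the RefSeq gene table (GRCm38.p6). Because neighbours in this cluster gave different readings, the 250 bases before the annotated start of the 3 measured ones are shown, 5′ to 3′ on the strand of each gene, from RefSeq (GRCm38.p6). They are C1ra at chr6:124512371-124512620 on the plus strand, C1s1 at chr6:124542360-124542609 on the minus strand (the outer of its 2 annotated starts) and C1rb at chr6:124570180-124570429 on the plus strand. Capitals mark matches to the motifs named below.
C1ra: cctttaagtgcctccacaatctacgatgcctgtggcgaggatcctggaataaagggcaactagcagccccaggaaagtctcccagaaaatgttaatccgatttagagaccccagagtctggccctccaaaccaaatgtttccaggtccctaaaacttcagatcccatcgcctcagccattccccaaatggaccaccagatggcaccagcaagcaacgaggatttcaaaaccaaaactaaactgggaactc
C1s1: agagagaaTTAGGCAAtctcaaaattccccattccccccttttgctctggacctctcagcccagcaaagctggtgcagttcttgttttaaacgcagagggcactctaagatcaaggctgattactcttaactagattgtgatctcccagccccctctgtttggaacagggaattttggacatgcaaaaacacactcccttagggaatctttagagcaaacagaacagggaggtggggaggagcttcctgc
C1rb: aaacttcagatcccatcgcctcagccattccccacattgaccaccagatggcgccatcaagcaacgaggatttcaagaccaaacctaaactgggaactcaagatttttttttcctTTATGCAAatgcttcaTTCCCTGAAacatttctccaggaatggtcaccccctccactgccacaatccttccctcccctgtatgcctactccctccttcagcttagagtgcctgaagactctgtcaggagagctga

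The C1ra and C1rb windows hold the same stretch at different distances from the annotated starts. A local alignment of the 300-base windows, which reach 50 bases past the start, paired 150 columns, of which 139 (92.7%) were identical. The stretch runs from 99 bases before to 50 after the start in C1ra, and from 250 to 101 before it in C1rb. Both copies hold TTATGCAA, a match to the C/EBP motif, and TTCCCTGAA, a match to the STAT motif; in C1ra these lie past the annotated start and outside the bases shown.

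Exact matches were searched on both strands of the 300-base windows of 6 of the 9 genes. A match to TTGCNNAA (C/EBP, both strands, so the capitals show its reverse complement) was in windows of C1ra, C1rb, C1s1 and C3, and in 10.8% of all 32851 windows of the table. For C1s1 it was in the window of the outer annotated start and not in that of the other start. A match to TTCNNNGAA (STAT) was in those of C1ra and C1rb and in 8.30% of all. The interferon-stimulated response element core (GAAA, any 2 bases, GAAA) was found in Cd59a and in 3.44% of all windows, and the NF-kB form searched (GGG, any 2 bases, TTTCC) in none of the 6 genes and in 1.63% of all. The motifs do not overlap one another in these windows. A match describes letters in a window and is neither a binding site nor a cause.

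C1s1 encodes the protease that cuts C4 and C2. Its probe set (1424041, suffix s_at) read 8.93, 9.34, 9.0 and 8.83 in cKO replicates 1 to 4, and 7.82, 7.93, 7.69 and 8.02 in WT replicates 1 to 4. The lowest cKO array lay 0.81 above the highest WT array, which was WT replicate 4. The means were 9.03 ± 0.22 and 7.87 ± 0.14 (log2, SD, n = 4 each), a difference of 1.16 (SE 0.11). The mean over all arrays was higher than that of 83.2% of probe sets. The suffix of this probe set marks probes shared by more than 1 transcript, so a share of signal from the neighbouring paralog C1s2, which had no named probe set, is uncertain.

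C1rb encodes one of the mouse C1r proteases, which activate C1s. It read 8.05, 8.30, 8.09 and 7.79 in cKO replicates 1 to 4, and 7.48, 7.33, 7.30 and 7.52 in WT replicates 1 to 4. The groups were 0.28 apart, the closest arrays being cKO replicate 4 and WT replicate 4. The means were 8.06 ± 0.21 and 7.41 ± 0.11 (log2, SD, n = 4 each), a difference of 0.65 (SE 0.10).

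C1ra, its paralog, read near the bottom of the scale, at 4.22, 4.32, 4.22 and 4.35 in cKO and 4.01, 4.01, 4.22 and 4.18 in WT replicates 1 to 4. The lowest cKO arrays and WT replicate 3 read alike, so the groups touched, and the difference was 0.17 (SE 0.06). 17.5% of probe sets had a lower mean. The C1rb probe set (1456437, suffix x_at) has the suffix for probes that can bind similar sequences, so the part of C1ra and C1rb in its signal is uncertain.

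Serping1 encodes the C1 inhibitor, a serpin that inactivates C1r and C1s. Its values were 7.79, 7.97, 8.10 and 7.98 in cKO replicates 1 to 4, and 6.76, 7.39, 6.75 and 6.53 in WT replicates 1 to 4. WT replicate 2 was the highest WT array and still lay 0.40 below the lowest cKO array, cKO replicate 1. The means were 7.96 ± 0.13 and 6.86 ± 0.37 (log2, SD, n = 4 each), a difference of 1.10 (SE 0.16). The inhibitor thus read higher in the same arrays as C1s1, with a difference of about the same size on the log2 scale. In bulk samples, more cells of a type that makes these transcripts and more RNA per cell cannot be told apart.

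Over the 8 arrays the deviations of C1s1 from its genotype means correlated with those of C1rb at r = 0.83 and with those of Serping1 at r = 0.07. For C1s1 the array farthest above its group mean was cKO replicate 2, at 0.31, and there C1rb was 0.24 above and Serping1 0.01 above theirs. WT replicate 2 was 0.53 above the WT mean for Serping1 but 0.07 above for C1s1 and 0.08 below for C1rb (-0.08). WT replicate 4 was the highest WT array for C1s1 and C1rb and the lowest for Serping1 (-0.32). These correlations are descriptions over 8 arrays that share 2 group means. C1s1 with C1rb was the highest pair among the described genes. Values of similar size were found for Serping1 with C4b (r = -0.79) and C1ra with Cd55 (r = 0.74). C1s1 and C1rb share a chromosomal neighbourhood with C1ra, which read near the bottom of the scale. The deviations of C1ra correlated with those of C1s1 at r = -0.03 and with those of C1rb at r = -0.14.

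**Figure D2:**
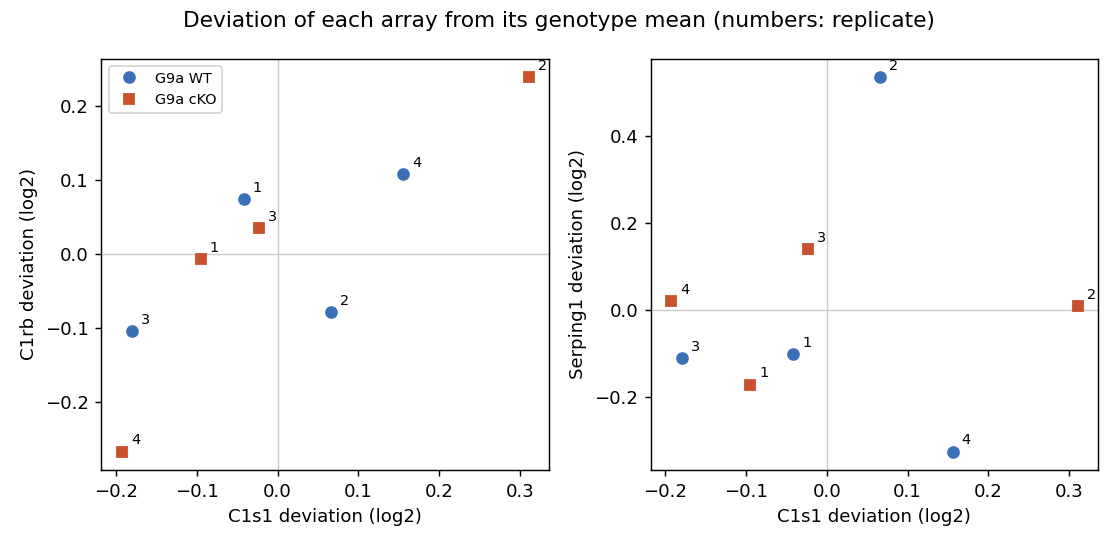
Deviation of each array from the mean of its genotype (log2) for C1s1 on the horizontal axes, against C1rb (left) and Serping1 (right) on the vertical axes; circles are WT, squares are cKO and numbers are replicates. The arrays follow a rising line for C1rb (r = 0.83) and no line for Serping1 (r = 0.07), where WT replicate 2 lies 0.53 above its group.

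The genes most like C1s1 were sought among all genes with a mean above 6, other than the genes described here as members. Over the 8 arrays the 5 most alike were Cacna2d2, Atp8a2, Scamp5, Tpd52 and Angptl6. Their Pearson r ran from 0.990 for Angptl6 to 0.998 for Cacna2d2. By deviations from the genotype means, which leave out the difference between genotypes, they were Cacna2d2 (r = 0.97), Atp8a2 (0.95), Pih1d1 (0.94), Zfand6 (0.93) and Mipep (0.93). Cacna2d2, which encodes a calcium channel subunit, and Atp8a2, which encodes a phospholipid flippase, led both orders, with log2 differences of 0.67 and 0.52 in cKO. The same 8 arrays entered each r, and they were picked as the highest.

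C4b encodes the C4 component that C1s cleaves. It read 5.48, 5.36, 5.35 and 5.35 in cKO replicates 1 to 4, and 5.59, 5.50, 5.55 and 5.62 in WT replicates 1 to 4. All cKO arrays lay below all WT arrays, but the gap was 0.02. The means were 5.39 ± 0.06 and 5.57 ± 0.05 (log2, SD, n = 4 each), a difference of -0.18 (SE 0.05) that was not among the called genes. C4b thus read slightly lower where the proteases read higher, at a level under the array medians.

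Cfb encodes factor B, the protease of the alternative pathway. It read 6.00, 5.87, 5.73 and 5.75 in cKO and 5.78, 5.90, 5.90 and 5.87 in WT replicates 1 to 4, so the cKO arrays lay on both sides of the WT arrays. The difference was -0.02 (SE 0.07), at a level close to the array medians.

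Cd55, the decay-accelerating factor, was measured by 3 probe sets. The brightest (1418762) read 7.89, 8.10, 7.83 and 8.05 in cKO replicates 1 to 4, and 7.78, 7.90, 7.95 and 8.26 in WT replicates 1 to 4. WT arrays were both the lowest and the highest, with WT replicate 4 at the top, and the difference was -0.01 (SE 0.10). The other 2 probe sets gave 0.05 (SE 0.15) and 0.17 (SE 0.10) and also had WT replicate 4 as the highest of the 8 arrays. Over the 8 arrays the 3 probe sets correlated with r from 0.77 to 0.94.

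Cd59a, which stops the last step of the membrane attack complex, had the highest reading of the 8 genes. Its main probe set (1418710) read 9.34, 9.08, 9.58 and 9.48 in cKO replicates 1 to 4, and 9.35, 9.16, 9.0 and 9.58 in WT replicates 1 to 4. The groups overlapped over most of their range, with a difference of 0.10 (SE 0.13). The second probe set read 7.47 to 8.16, differed by 0.13 (SE 0.17) and followed the first over the arrays (r = 0.97). A probe set's mean lay above that of 91.2% of all probe sets for Cd59a and 77.6% for Cd55, but readings of different genes depend on their probes and give no order of transcript levels.

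Of 44 further complement genes, 36 were measured, and none was past the threshold in limma. An unadjusted limma p under 0.05 was found for 4 of the 36, and for 2348 of all 17097 genes. In the list 13 lay above 0 and 23 below, where 8798 of all 17097 genes lay above and 8299 below. The median log2 difference was -0.02, against 0.003 over all genes, and 2.76% of all genes were called. The 3 with the lowest p were Vtn, which encodes vitronectin (5.01 ± 0.04 in cKO and 4.89 ± 0.06 in WT, log2, SD, n = 4; limma adjusted p = 0.275), Hc, which encodes C5 (4.67 ± 0.07 and 4.54 ± 0.08; limma adjusted p = 0.293), and the receptor gene Cr2 (4.67 ± 0.04 and 4.57 ± 0.05; limma adjusted p = 0.300). All 3 read under the array medians.

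The recognition molecules bring C1r and C1s or the related Masp proteases to a target. For 9 such genes the WT means ran from 4.08 to 6.84, the highest being Colec11. The log2 differences ran from -0.26 to 0.03, and 8 lay below 0, where 8299 of all 17097 genes did. C1qb, a chain of C1q, read 4.57, 4.58, 4.34 and 4.36 in cKO and 4.54, 4.78, 5.09 and 4.49 in WT replicates 1 to 4 (limma adjusted p = 0.371). C1qa differed by -0.18 (limma adjusted p = 0.401) and C1qc by -0.12 (limma adjusted p = 0.776), and WT replicate 3 was the highest array for all 3 chains. The summed signal of 8 macrophage and monocyte markers was also highest there, at a log2 of 8.01 against 7.77 to 7.94 in the other WT arrays and 7.75 to 7.81 in cKO. The WT means of these 8 markers, among them Adgre1, Csf1r and Cd68, were 4.39 to 5.32, and their part in the C1q readings was not tested.

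The 4 other proteases (Masp1, Masp2, C2 and Cfi) differed by -0.11 to 0.07. The 6 terminal components (Hc, C6, C8a, C8b, C8g and C9) differed by -0.11 to 0.14. Of these 6, 4 lay above 0, where 8798 of all 17097 genes did. The 6 soluble regulators ran from -0.08 for Clu, which encodes clusterin, to 0.12 for Vtn. Among the 3 other membrane regulators, Cr1l, the gene of the rodent regulator Crry, read 10.13 ± 0.05 in cKO and 10.04 ± 0.13 in WT (log2, SD, n = 4; limma adjusted p = 0.609). The 8 receptor genes ran from -0.20 for C3ar1 to 0.10 for Cr2. None of these groups held a called gene.

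**Figure D3:**
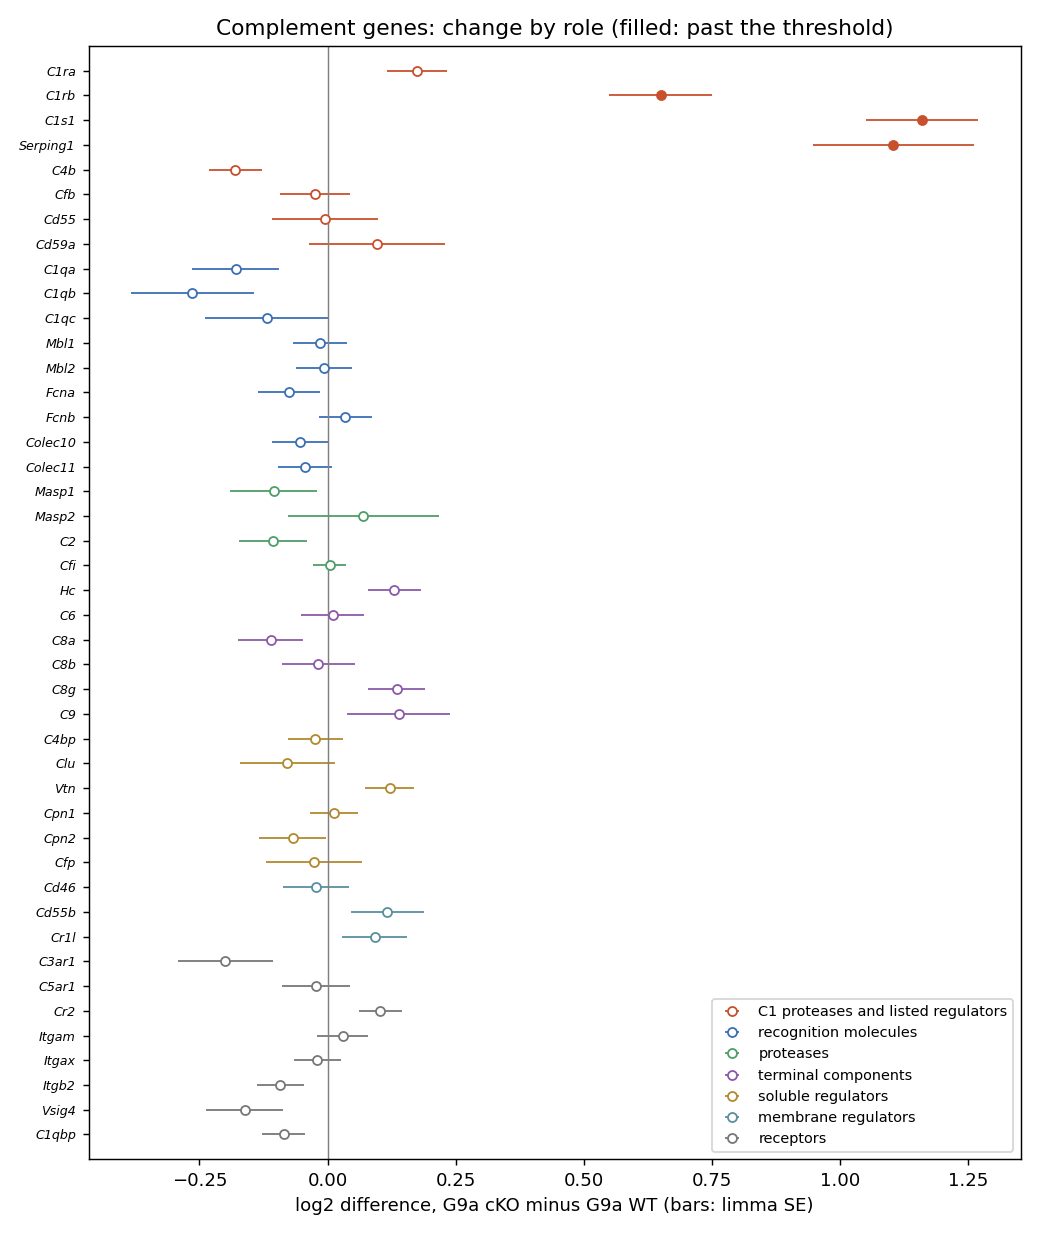
Log2 difference, G9a cKO minus G9a WT (horizontal axis), with limma standard errors for 8 listed genes and 36 further complement genes (vertical axis, coloured by role); filled points are past the threshold. C1rb, C1s1 and Serping1 lie at 0.65 to 1.16, and the 36 further genes lie between -0.26 and 0.14.

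The next list held genes of the cytokine, interferon and NF-kB signalling known to act on complement genes, its feedback inhibitors Socs1, Socs3 and Nfkbia included. Of 27 measured, none was past the threshold in limma (2.76% of all genes were), 9 had an unadjusted p under 0.05 (2348 of all 17097 genes), and 18 lay below 0 (8299 of all), with a median log2 difference of -0.05. Stat3, a transcription factor downstream of interleukin 6, read 9.57, 9.56, 9.64 and 9.62 in cKO and 9.93, 9.99, 9.91 and 9.62 in WT replicates 1 to 4 (limma adjusted p = 0.107). WT replicate 4 read within the cKO range and the other 3 WT arrays above it. Nfkbiz, an NF-kB cofactor gene, read 9.07 ± 0.26 and 9.63 ± 0.37 (limma adjusted p = 0.161), and Cebpb, a C/EBP factor gene, 8.45 ± 0.19 and 8.77 ± 0.15 (log2, SD, n = 4 each; limma adjusted p = 0.162). Irf9, an interferon-signalling factor gene, lay on the other side, at 9.86 ± 0.06 and 9.67 ± 0.18 (limma adjusted p = 0.328). Without WT replicate 4, the genes called over the whole array went from 472 to 796 and those called lower from 143 to 294. In that fit 5 of the 27 were called lower: Stat3, Nfkbiz, Irf1, Cebpd and Socs3, with log2 differences of -0.34, -0.74, -0.66, -0.63 and -1.11. Omitting any other single array gave no called gene among the 27. With no array omitted, Stat3 was called lower with array weights (-0.28, limma adjusted p = 0.0350). Nfkbiz was called lower with a block for replicate number (-0.56, limma adjusted p = 0.0293). The calls of Irf1, Cebpd and Socs3 depend on that 1 omission.

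Of 15 measured acute phase and defence genes outside complement, 1 fell and none rose, where 0.836% of all genes fell and 1.92% rose. It was Serpina3n, a serpin gene, which read 6.07 ± 0.15 in cKO and 7.46 ± 0.36 in WT (log2, SD, n = 4; limma adjusted p = 0.00149), 2.63-fold lower. Its arrays read 6.26, 6.12, 5.99 and 5.91 in cKO and 7.62, 7.84, 7.38 and 7.00 in WT, without overlap. This serpin therefore differed in the opposite direction from Serping1. The list median was -0.01, against 0.003 over all genes.

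Fibroblasts are a known source of C1r, C1s and the C1 inhibitor, so their markers are given beside these results. Of 9 fibroblast markers 1 rose and 1 fell, where 1.92% of all genes rose and 0.836% fell. Thy1, which other cells also express, read 7.47 ± 0.25 in cKO and 6.90 ± 0.10 in WT (log2, SD, n = 4; limma adjusted p = 0.0251), and Col1a1 read 6.17 ± 0.19 and 7.08 ± 0.11 (limma adjusted p = 0.00100). The summed signal of the 9 markers was a log2 of 8.71 to 8.85 in cKO and 8.74 to 8.80 in WT. Thy1 and Col1a1, the brightest of the 9, weigh most in this sum and differed in opposite directions. Its overlap between the groups is therefore no measure of an equal fibroblast part. The group means of the 9 ran from 3.76 for Dpt to 7.47 for Thy1; those of Pdgfra were 3.88 in cKO and 3.92 in WT, and those of Dcn 5.70 and 5.67. The part of fibroblast RNA in the readings of C1s1, C1rb and Serping1 was not tested. The summed signals of 5 endothelial markers were 7.33 to 7.52 in cKO and 7.26 to 7.54 in WT. Those of 4 T cell markers were 6.68 to 6.85 and 6.76 to 6.86, and of 4 Langerhans and dendritic markers 7.37 to 7.88 and 7.18 to 8.05. Those of 5 melanocyte markers were 8.24 to 8.44 and 8.26 to 8.58, and of 10 bulge markers 14.04 to 14.11 and 14.04 to 14.14. All of these overlapped between the groups. The sums of 6 keratinocyte markers did not, at 14.7587 to 14.7785 in cKO and 14.7448 to 14.756 in WT. No bulge or keratinocyte marker was called, where 2.76% of all genes were.

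The genes beside the C1r and C1s cluster were read for comparison. Of the 5 protein-coding genes on each side, 9 were measured. None was past the threshold in limma, where 2.76% of all genes were. An unadjusted limma p under 0.05 was found for 1 of the 9, and for 2348 of all 17097 genes. That gene was Ptpn6, a phosphatase gene, with a log2 difference of 0.20 (limma adjusted p = 0.221), and the 9 ran from -0.09 to 0.20.

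C4b and Cfb are neighbours of Ehmt2 itself on chromosome 17, Cfb in the third place and C4b in the ninth place before it in the gene table. Beside these, 16 of the protein-coding genes in the 10 places on each side were measured. None was past the threshold in limma, where 2.76% of all genes were. An unadjusted limma p under 0.05 was found for 1 of the 16, and for 2348 of all 17097 genes. That 1 was Sapcd1, with a log2 difference of -0.21 (limma adjusted p = 0.343). The 16 ran from -0.25 for Vwa7 to 0.10 for Nelfe, with a median of -0.05, while the lower Ehmt2 probe set stood at -3.21. C2, which lies between Cfb and Ehmt2 and encodes the other substrate of C1s, read 4.92 ± 0.05 in cKO and 5.03 ± 0.13 in WT (log2, SD, n = 4; limma adjusted p = 0.554).

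**Figure D4:**
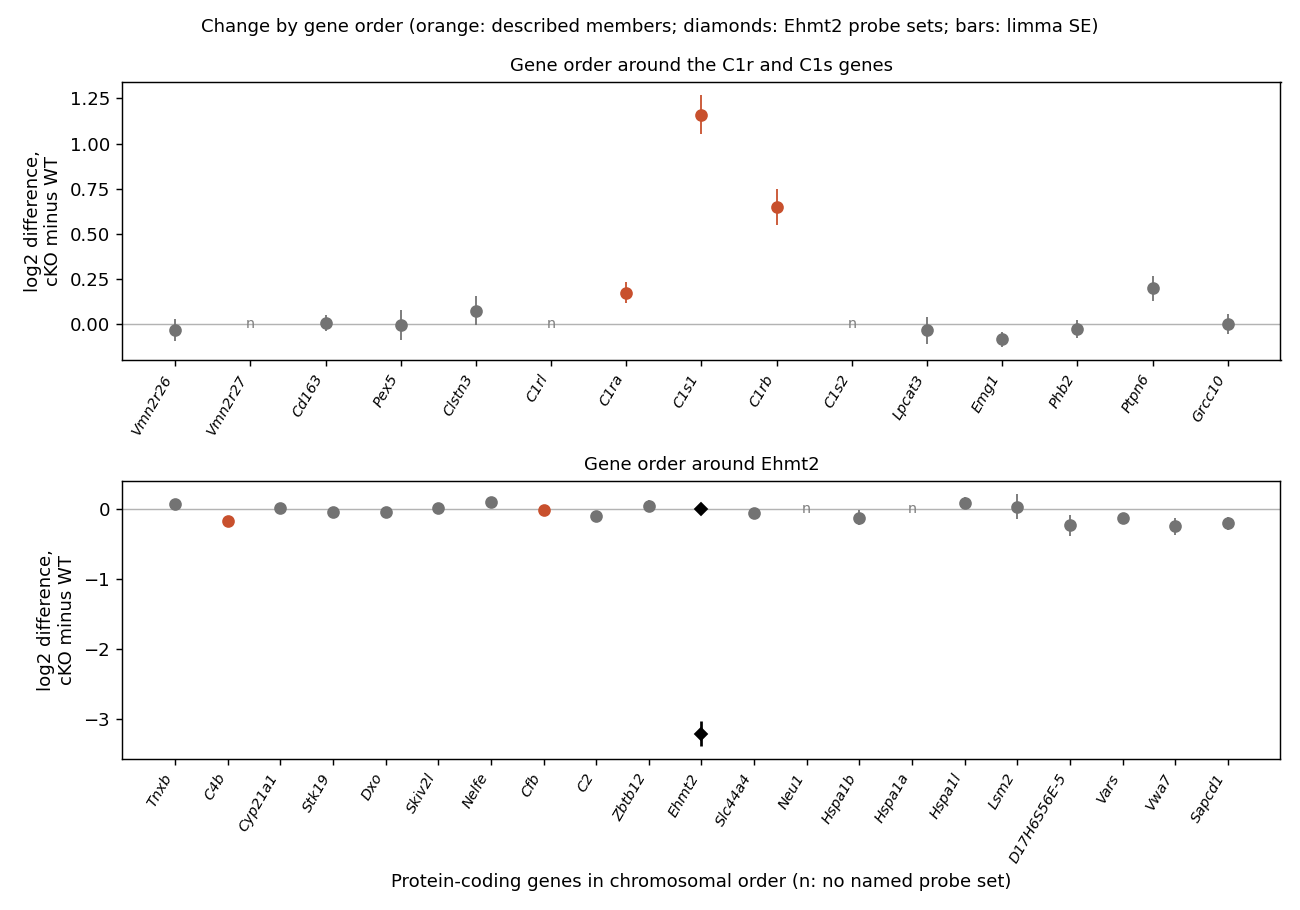
Log2 difference, G9a cKO minus G9a WT (vertical axes), with limma standard errors, for protein-coding genes in chromosomal order around the C1r and C1s genes (top) and around Ehmt2 (bottom). Orange points are C1ra, C1s1 and C1rb, and C4b and Cfb; diamonds are the 2 Ehmt2 probe sets. C1s1 and C1rb stand at 1.16 and 0.65 while the 9 genes beside the cluster lie between -0.09 and 0.20.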

How the data were processed

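Expression was measured on 8 arrays, 4 G9a cKO and 4 G9a WT. The deposited log2 values, 1 per probe set, came from RMA according to the submitters' processing notes; the sources used here give neither its version nor its settings. RMA removes background, makes array distributions alike and combines probes, so absolute levels between genes are not comparable. Per the labels, 25 ng of RNA were amplified over 17 cycles.

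The platform annotation gave 28898 probe sets 1 symbol, 551 several (unnamed here) and 15692 none. Where a gene had several probe sets, the one brightest on average was fitted. For Ehmt2 this was 1426888, so Ehmt2 is not among the called genes although its probe set 1460692 stood at -3.21. The 17097 genes were fitted with limma 3.58.1 in R 4.3.3 (eBayes with trend, two-sided), adjusted by Benjamini-Hochberg over all genes, with a threshold of 0.05; the fit was tested on simulated data. Errors are SD, or the limma SE where named. The number of arrays limits precision. Beyond titles that refer to an animal, nothing says that arrays of a group came from separate mice; p-values then measure only the spread between these arrays, which may be technical.

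The members and lists were chosen with earlier results of these data known. The rule named all members, Ehmt2, the called genes of each list (up to 3 with the lowest p where none passed) and the 5 genes most like C1s1; the C1q chains, Cr1l, Clu, C3ar1, Irf9, C2, Ptpn6, Nelfe, Colec11, Pdgfra, Dcn, Dpt and the signalling genes called without WT replicate 4 were picked once their values had been seen. Alternatives were a repeated quantile normalization, a shift to equal medians, removal of the dimmest 40% of probe sets, averaged probe sets, eBayes without trend, array weights, a block for replicate number, thresholds of 0.01 and 0.1, and omission of each array. Alignment used Biopython 1.88 and figures matplotlib 3.10.9.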

Additional observations from a re-analysis of the deposited data

Results flagged for a closer look

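C4b read 5.48 in cKO replicate 1, apart from the other cKO arrays at 5.35 to 5.36. The gap was 0.878 of the group's range, past Dixon's critical value for 4 arrays. It was the 1 such case in 64 groups of 4 arrays tested over the named genes and probe sets, where chance flags about 1 in 20. The difference between genotypes of C4b over the fits that left out 1 array ran from -0.21 to -0.16.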

How the results depend on the processing

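Over 15 alternative fits the log2 differences of C1s1, C1rb and Serping1 ran from 1.06 to 1.22, 0.57 to 0.74 and 1.00 to 1.28; these are ranges over the arrays on which the genes were chosen and no support for them. The signs of Cd55 (-0.07 to 0.09) and Cfb (-0.08 to 0.01) turned between fits. With array weights 732 genes were called, 249 of them lower, and 1 gene of the signalling list (Stat3). With the replicate block 268 were called, 191 higher and 77 lower, with 1 gene of the signalling list (Nfkbiz); same-numbered arrays deviated with correlations of -0.53 to 0.03, so the numbers were not taken as pairs. At 0.01 the counts were 203, 159 and 44, and at 0.1 they were 744, 497 and 247. Leaving out 1 array gave 258 to 796 genes, 190 to 502 higher and 67 to 294 lower, and 0 to 5 genes of the signalling list: omitting WT replicate 4 gave the 796, omitting cKO replicate 2 the 258, and omitting WT replicate 3 gave 262, cKO replicate 4 296 and WT replicate 1 304; without cKO replicate 3 the lower genes numbered 74. The cause of these shifts was not tested. No further complement gene and no neighbour of Ehmt2 was called at any setting, the threshold of 0.1 included. C1ra, C4b, Cfb and the C1q chains read under or near the array medians, and what this does to the size of their differences was not tested.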
